A study of Oryza sativa with 12 samples.

Results

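The embryo of the rice (Oryza sativa) seed, the new plant, was compared with the pericarp, the fruit wall made by the mother plant, across all genes of a deposited table of RNA sequencing counts. Columns marked Em gave 3 embryo libraries and columns marked Pc gave 3 pericarp libraries. Of 37878 genes in the table, 19777 had a count in at least 1 of these 6 libraries, and 16347 genes passed a filter on low counts and were tested. All plants were of Oryza sativa, grown in the field with no treatment, and the 4 dissected tissues (pericarp, aleurone, embryo and endosperm) had 3 libraries each, made from 10 ng of total RNA. The sources used here do not give the cultivar, the age of the seed or the plants behind each library. The 3 libraries of a tissue are described as biological replicates, and no label says whether they came from separate plants or whether tissues came from the same seeds.

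The pericarp is diploid maternal tissue that surrounds the seed coat, the nucellus and the filial tissues. In the cereal grain it carries the vascular bundle that delivers sucrose, and sucrose efflux carriers and proton-coupled sucrose transporters move it across the boundary between mother and offspring. The embryo, by contrast, divides and forms its root, shoot and scutellum, and later stores oil and makes proteins that protect it when it dries. The adjoining aleurone and starchy endosperm store oil and starch respectively, and a dissected pericarp or embryo can carry some of them along. In bulk samples such as these, fewer cells of a type and less RNA per cell cannot be told apart.

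Levels below are CPM, in which the counts of each library are scaled to a common total, corrected by TMM (trimmed mean of M values) factors. Embryo libraries are numbered 2, 3 and 4 and pericarp libraries 1, 3 and 4, as in the column headers, and values are given in that order. Embryo 2 and pericarp 1 carried sequencing lane 6, and the other 4 libraries lane 5. Embryo libraries held 14205388 to 18169845 counts and pericarp libraries 2879282 to 6301388. Spearman correlations across the 16347 genes (genes are not independent replicates) lay at 0.824 to 0.889 between embryo libraries and 0.316 to 0.366 between pericarp libraries. An embryo and a pericarp library correlated at 0.321 to 0.410, so a pericarp library stood about as far from another pericarp library as from an embryo library.

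About 3 times as many genes were counted in an embryo library as in a pericarp library. Embryo libraries counted 15974 ± 1428 genes and pericarp libraries 5326 ± 662 (SD, n = 3 each; exact two-sided permutation test p = 0.1, the smallest p that 3 against 3 allows). Thinned to 2879282 counts each, the embryo libraries still held 15811 ± 1406 genes and the pericarp libraries 5165 ± 554. In all, 9897 genes were counted in embryo and in no pericarp library, 703 in pericarp and in no embryo library, and 9177 in both. Presence in every library was rarer, at 12829 genes for embryo, 1718 for pericarp and 1603 for all 6 libraries.

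The genes that were counted sat at different levels in the 2 tissues. Their median was 17.5 ± 1.92 CPM in embryo and 57.7 ± 5.36 CPM in pericarp (SD, n = 3 each; exact two-sided permutation test p = 0.1). Levels from 1 to 10 CPM were common in embryo, with 29.5% to 34.9% of the counted genes of a library, and nearly missing from pericarp, with 1.62% to 3.56%. Below 1 CPM the order was the other way, at a mean of 3.05% in embryo and 12.7% in pericarp. The same CPM rests on fewer counts in pericarp. TMM-corrected library sizes were 6009837 to 8307361 there and 18008603 to 21668814 in embryo. Where a gene was present in all 3 embryo libraries and in 1 pericarp library, its median level in that pericarp library was 45.1 CPM, and 83.2% of these 3888 values rested on at least 5 counts.

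**Figure D1:**
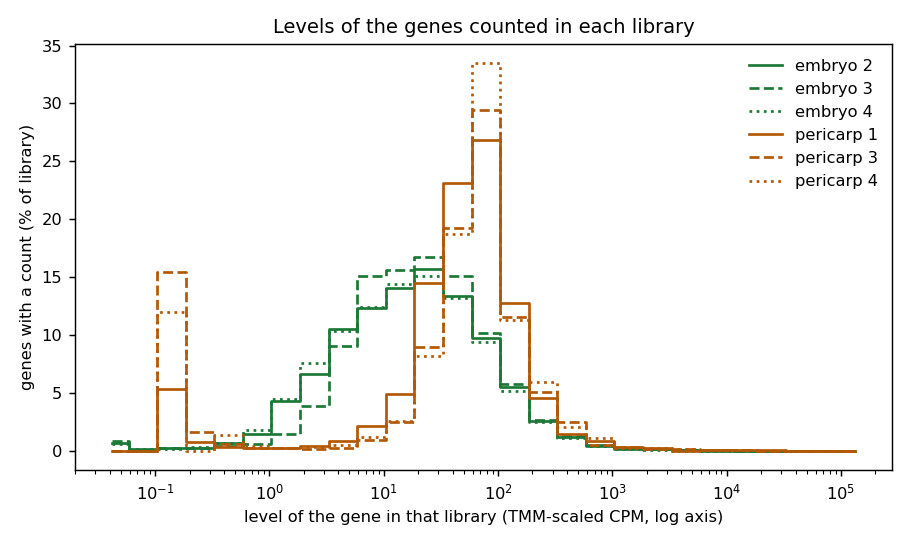
Levels of the counted genes in each of the 6 libraries; the x axis is the gene's TMM-scaled CPM on a log scale and the y axis the percentage of that library's counted genes in each bin, with 1 line per library. The 3 embryo lines form 1 broad hump with medians near 17.5 CPM, while the 3 pericarp lines have a narrow hump with medians near 57.7 CPM, a gap between 1 and 10 CPM, and a small peak of genes with about 1 count.

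Whether an embryo gene was seen in pericarp followed its embryo level. Of 2401 genes at 3 to 10 CPM in embryo and counted in all 3 embryo libraries, 67.8% had no count in any pericarp library and 1.42% had one in all 3. At 30 to 100 CPM, over 4023 genes, these shares were 22.4% and 13.6%. Among the 340 genes at 300 CPM or more, 0.882% were absent from all pericarp libraries and 88.2% were present in all 3. Of the 4939 genes counted in all 3 embryo libraries and in no pericarp library, 2205 had an embryo level of 10 to 30 CPM, 44 one of 100 to 300 CPM and 3 one of 300 CPM or more. The smallest pericarp library, pericarp 4, had 2879282 counts, and the floor of 3 counts over the 3 pericarp libraries was 0.137 CPM, against 0.0497 CPM in embryo. These floors cover counting error only and not transcripts lost before counting.

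**Figure D2:**
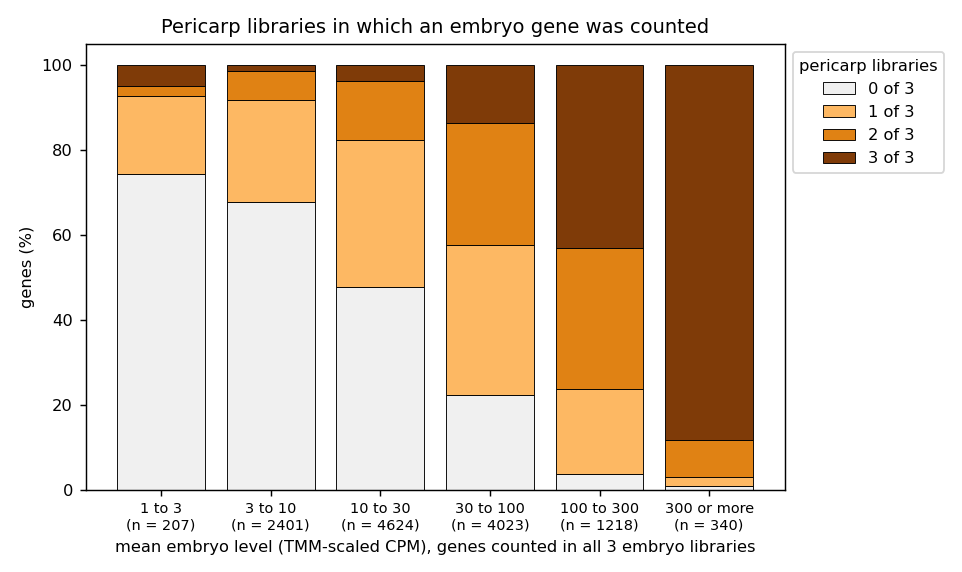
Percentage of genes counted in 0, 1, 2 or 3 pericarp libraries (y axis), for genes counted in all 3 embryo libraries and grouped by mean embryo level in TMM-scaled CPM (x axis, with the number of genes in each bar). The share counted in no pericarp library falls from 74.4% at 1 to 3 CPM to 0.882% at 300 CPM or more.

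A difference of 2-fold or more was called where the p of edgeR's quasi-likelihood (QL) test, fitted over all 12 libraries and adjusted by the Benjamini-Hochberg method, was below 0.05. By this rule 456 genes, 2.79% of those tested, were called, 357 (2.18%) higher and 99 (0.606%) lower in embryo. With library totals alone in place of TMM the calls were 194 higher and 92 lower. At an unadjusted p below 0.05 there were 6571 genes, 6121 of them higher in embryo. The spread within all 4 tissues entered these tests: the common dispersion of the fit over 12 libraries was 3.49 (biological coefficient of variation 1.87). A fit of the 6 embryo and pericarp libraries alone called 5638 genes, DESeq2 5316 and limma voom 7222, and all 357 of the higher genes were among the calls of the 6-library fit, as were 75 of the 99 lower genes. With lane as a covariate there were 186 calls, and within lane 5, which holds 2 libraries of each tissue, 7405. Leaving out a library moved the 456 calls to 122, 129 or 108 for embryo 2, 3 or 4, to 925 for pericarp 1, to 248, 694 or 175 for aleurone 1, 2 or 3, and to 830 or 241 for endosperm 3 or 4.

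Counted without a test, every embryo library was above every pericarp library for 7028 genes (43% of those tested) and every pericarp library above every embryo library for 339 (2.07%). Of the 7028, 4891 had no count in any pericarp library. The median log2 fold change over all genes tested was 2.41, and 2.42 with genes at 0 in a tissue set at their floor, so a gene in a list stands against that shift. Under DESeq2's size factors the same median was 1.88 and with library totals alone 2.05. Among the 1602 tested genes counted in all 6 libraries, every embryo library was the higher for 456, every pericarp library for 240, and the libraries overlapped for 906. The median log2 fold change of these 1602 was 0.30 with TMM, -0.21 with DESeq2's size factors and -0.17 with library totals, so no direction is given for them as a whole. Their highest embryo library was a median of 1.56 times the lowest, against 3.81 times in pericarp.

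**Figure D3:**
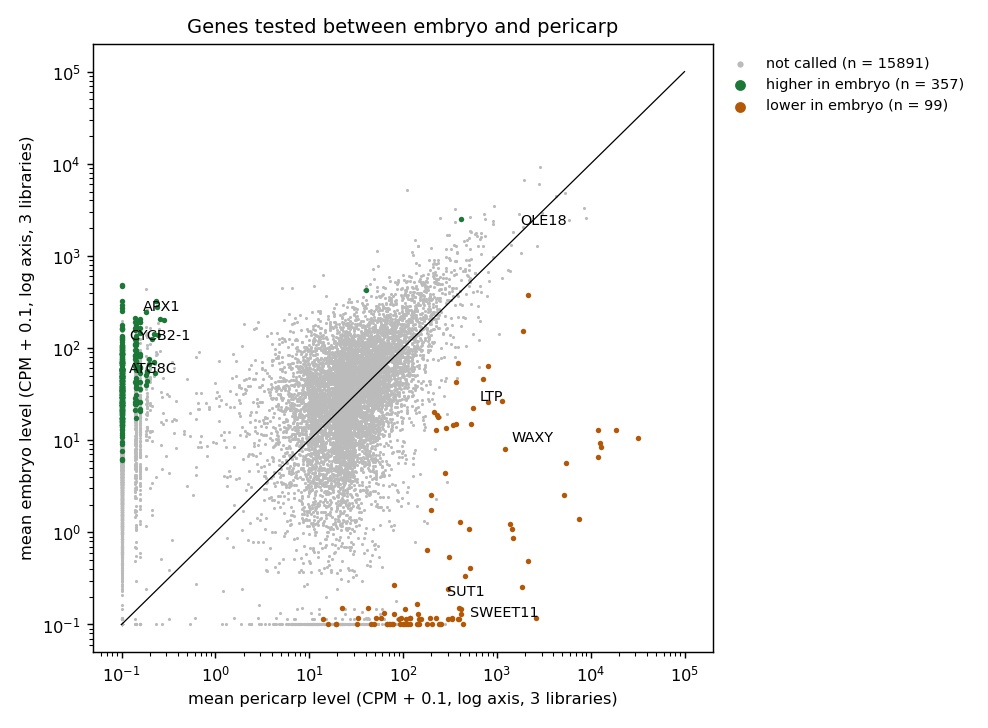
Mean level of each of the 16347 tested genes in pericarp (x axis) and embryo (y axis), both in CPM + 0.1 on log axes over 3 libraries, with the line of equality; green points are the 357 genes called higher in embryo and orange points the 99 called lower. Most green points stand at the left edge, where pericarp had no or hardly any counts, and the orange points spread below the line from about 14 CPM to the most abundant genes of pericarp.

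Sugar transport genes were among those called in favour of pericarp. SUT1 encodes a proton-coupled sucrose transporter, which loads sucrose into cells, and lies on chromosome 3 from 4249429 to 4255303. It had 0 CPM in all 3 embryo libraries and 190, 214 and 333 CPM in the pericarp libraries. SWEET11, a sucrose efflux carrier needed for seed filling in rice, lies on chromosome 8 from 28419731 to 28421978. Its embryo libraries were also at 0 CPM, and its pericarp libraries had 713, 367 and 235 CPM. Neither gene's groups overlapped, and the 3 pericarp libraries kept no common order, since pericarp 4 was the highest for SUT1 and the lowest for SWEET11. Against the floor, SUT1 was at least 4948-fold lower and SWEET11 at least 8825-fold lower in embryo (edgeR QL test, adjusted p = 0.0124 and 0.0140). Without embryo 3 or 4 the SUT1 call ended (adjusted p = 0.0606 and 0.0539), and without any 1 of the embryo libraries the SWEET11 call did (0.0540 to 0.0648).

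Of 16 sugar transport and cleavage genes, 7 were tested, 2 were lower in embryo and 0 higher. Over all genes tested, 0.606% were called lower and 2.18% higher. The median log2 fold change of the 7 was -3.16, against 2.41 over all genes. The following members lie outside the rule for naming genes and were chosen after their values were seen. CIN2, a cell wall invertase that splits sucrose outside the cell, had 3.78, 32.4 and 36.3 CPM in embryo and 203, 84.7 and 0 CPM in pericarp, and the groups overlapped. SWEET14, of the same carrier family as SWEET11, had no count in embryo and 59.9, 33.2 and 0 CPM in pericarp (adjusted p = 0.0703, edgeR), while SUT4, a sucrose transporter of another clade, had 24.0, 24.9 and 38.9 CPM in embryo and at most 0.131 CPM in pericarp. SUT4 was the member whose embryo libraries all lay above pericarp. A further 7 members had no count in any of the 6 libraries.

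WAXY, which encodes the starch synthase for amylose in the endosperm (chromosome 6, from 1931535 to 1935014), was the starch gene with a symbol. Embryo libraries had 3.23, 19.9 and 0.724 CPM, and pericarp libraries 2320, 974 and 343 CPM. Every pericarp library was above every embryo library, with pericarp 1 the highest and embryo 4 the lowest. The level fell by 7.25 ± 1.24 in embryo on the log2 scale (SE; edgeR QL test, adjusted p = 0.0110), and the call ended without embryo 2 (adjusted p = 0.0505), with limma voom (0.970) and within lane 5 (0.0800). WAXY is also the defining endosperm marker, the only 1 of 10 planned endosperm markers found by symbol, and its endosperm libraries held 23088 to 81668 CPM. Its part in the other differences between embryo and pericarp was not tested.

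LTP, which encodes a small secreted protein that binds lipids (chromosome 12, from 916286 to 916774), had 45.8, 17.9 and 3.09 CPM in embryo and 428, 571 and 652 CPM in pericarp. All pericarp libraries lay above all embryo libraries, and the ratio of the highest to the lowest library was larger in embryo than in pericarp. The level fell by 4.63 ± 1.10 in embryo (log2, SE; edgeR QL test, adjusted p = 0.0440). This call ended without any 1 of 10 of the 12 libraries, all but pericarp 1 and endosperm 3 (adjusted p = 0.0507 to 0.143). Of the 5 lipid transfer genes tested, LTP was called and 4 were not, among them the copies LTP110-A_1 and LTP110-A_2, whose shared reads may have been split between them. The median log2 fold change of the 5 was -3.44, against 2.41 over all genes tested, and all 5 had a fold change below 0. Over all genes tested, 75.2% had a fold change above 0 and 0.606% were called lower.

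The 99 genes called lower in embryo were abundant in aleurone and endosperm too. Their median level was 232 CPM in pericarp, 393 CPM in aleurone, 591 CPM in endosperm and 0.0339 CPM in embryo. In 89 of the 99 the aleurone or endosperm mean was above the pericarp mean, and 26 had an endosperm mean over 10 times that of pericarp. Over all 16347 genes tested these counts were 12274 and 5243. All 3 aleurone libraries counted 98 of the 99, against 6305 of all genes tested. Because the fit took its spread from all 12 libraries, levels in aleurone and endosperm are not independent of the call. In 10 of the 99 pericarp was the highest of the 4 tissues, against 2239 of all genes tested. SWEET11 was the only one of the 10 with a symbol. Endosperm held no count of 7 of the 99, and SUT1 and SWEET11 were low there, at 4.36 ± 5.96 and 2.37 ± 3.94 CPM (SD, n = 3). Both were high in aleurone, SUT1 at 668 ± 405 CPM and SWEET11 at 353 ± 146 CPM (SD, n = 3). Their pericarp means were 246 and 438 CPM. The part of endosperm or aleurone tissue in the pericarp libraries was not tested.

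**Figure D4:**
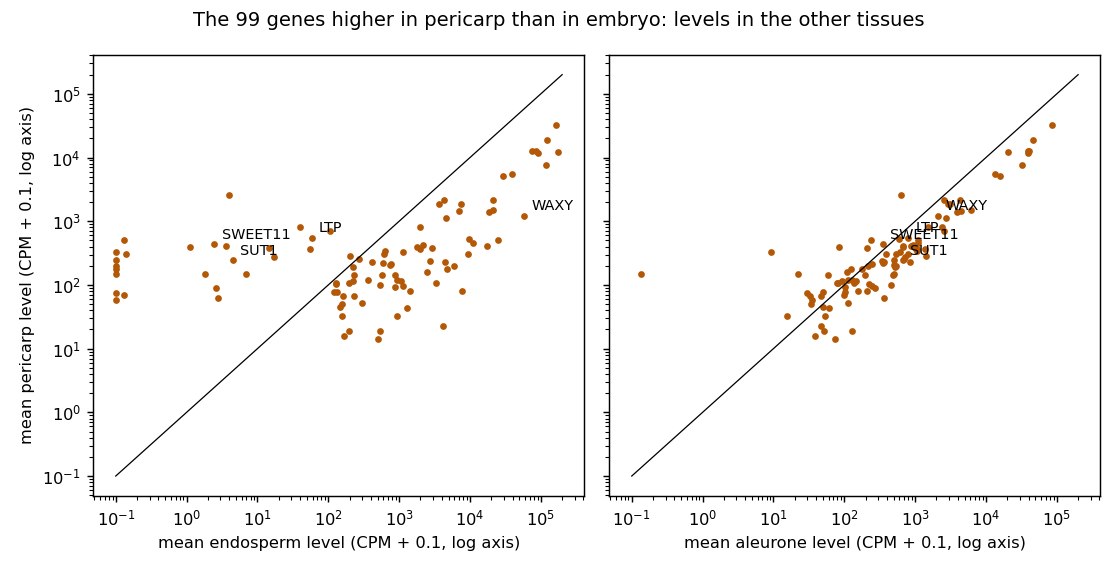
Mean pericarp level (y axis) of the 99 genes called lower in embryo, against their mean endosperm level (left, x axis) and mean aleurone level (right, x axis), all in CPM + 0.1 on log axes over 3 libraries, with lines of equality. Points right of the line, 73 genes for endosperm and 76 for aleurone, were higher in that tissue than in pericarp, and SUT1 and SWEET11 stand left of the endosperm line. Over all 16347 genes tested, 8490 were higher in endosperm and 10718 in aleurone than in pericarp.

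As a share of all counts, the 99 genes took 35.6% in pericarp 1, 23.3% in pericarp 3 and 12.05% in pericarp 4. They took 0.104% to 0.161% in the embryo libraries, 16.8% to 46.3% in aleurone and 55.1% to 65.0% in endosperm. Pericarp 1 was the highest pericarp library for 56 of the 99 and pericarp 4 the lowest for 58. The same order held for WAXY and SWEET11 and not for SUT1 or LTP, where pericarp 4 was highest. Of the 10 most abundant pericarp genes, 7 were called lower in embryo, 7 were among the 10 most abundant of endosperm and 9 among those of aleurone.

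The lowest adjusted p values fell on genes that the table lists by identifier alone, so no product can be given. Among the lower genes, BGIOSGA006780 (chromosome 2, from 9427947 to 9429700) had 1.48, 0.9995 and 1.45 CPM in embryo and 11102, 8856 and 2821 CPM in pericarp. Its log2 fold change was -12.49 ± 0.91 (SE; edgeR QL test, adjusted p = 9.19e-05), and the endosperm mean was higher again, at 118719 ± 64786 CPM. BGIOSGA035383 (chromosome 11, from 16350162 to 16350569) had 0.138, 0.222 and 0.0965 CPM in embryo and 2819, 1765 and 977 CPM in pericarp. Both remained called without any 1 of the 12 libraries, at adjusted p up to 0.00299, and neither was called by limma voom (adjusted p = 0.965 and 0.569). Of the 99 genes, 12 lay next to another of the 99 in the table's gene order, in 6 runs of 2. The run that holds BGIOSGA006780 spans 9427947 to 9436322 on chromosome 2, with means of 7593 and 12529 CPM in pericarp and 86410 to 118719 CPM in endosperm.

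The 357 genes called higher in embryo had the reverse pattern of presence, since 271 of them had no count in any pericarp library. This held for 7040 of the 16347 genes tested. Few were restricted to embryo among the 4 tissues. All 3 aleurone libraries counted 335 of the 357 and all 3 endosperm libraries 313, and embryo had the highest mean of the 4 tissues in 139. Over all 16347 genes tested these counts were 6305, 5014 and 6858. The fit took its spread from all 12 libraries, so presence in aleurone and endosperm is not independent of the call. The median level of the 357 was 46.8 CPM in embryo, 43.5 CPM in aleurone and 47.6 CPM in endosperm. Together they took 3.10% to 3.39% of the counts in embryo and 0.0373%, 0.0707% and 0.147% in pericarp 1, 3 and 4. By gene span they were longer, with a median of 4070 bp against 2954 bp over all genes tested and 1730 bp for the 99 lower genes.

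Autophagy genes were among the calls with a symbol. ATG8B and ATG8C encode ubiquitin-like proteins that are joined to lipid and coat the autophagosome. ATG8C (chromosome 8, from 5626763 to 5628289) had 55.3, 26.7 and 51.1 CPM in the embryo libraries and 0 CPM in all 3 pericarp libraries. ATG8B (chromosome 4, from 30756478 to 30758716) had 15.4, 15.9 and 12.3 CPM in embryo and 0 CPM in pericarp. Embryo levels stood at least 325-fold and 106-fold above the floor (adjusted p = 0.0110 for both, edgeR QL test), and both calls held without any 1 of the 12 libraries, at adjusted p up to 0.0460. ATG8A, the remaining family member with a symbol, did not pass and had 52.9, 85.1 and 70.6 CPM in embryo and 65.4, 71.7 and 133 CPM in pericarp. ATG4A, a protease that processes ATG8, had 21.3, 19.7 and 36.5 CPM in embryo and 0 CPM in pericarp without passing (adjusted p = 0.0781, edgeR). The call thus covered 2 of 4 autophagy genes tested, against 2.18% of all genes tested called higher. Their median log2 fold change was 7.15 where genes at 0 were set at their floor, against 2.42 over all genes tested. ATG8B and ATG8C were highest in endosperm, with means of 274 and 114 CPM. Having no count in any pericarp library was common, at 7040 of the 16347 genes tested.

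Among ribosomal protein genes, RPL11_2, a component of the large subunit, was called and its near copy was not. RPL11_2 (chromosome 6, from 21553617 to 21555987) had 79.5, 119 and 90.7 CPM in embryo and 0 CPM in pericarp, at least 707-fold above the floor (adjusted p = 0.0110, edgeR QL test). RPL11_1 had 216, 194 and 201 CPM in embryo and 0, 136 and 219 CPM in pericarp, and the groups overlapped. Reads shared by the 2 copies could have been split unevenly, which makes the value of either uncertain. Of 10 ribosome and translation genes tested, 1 was higher, 0 were lower and the median log2 fold change was 0.80. Over all genes tested, 2.18% were called higher and 0.606% lower, and the median was 2.41.

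Regulators and enzymes made up the other named calls in favour of embryo. UBP26, a ubiquitin protease that in Arabidopsis removes ubiquitin from histone H2B (chromosome 3, from 5260072 to 5267142), had 62.0, 135 and 117 CPM in embryo. CDKG-1, a cyclin-dependent kinase (chromosome 2, from 25262506 to 25265124), had 73.1, 17.0 and 53.8 CPM. PHR2, the transcription factor at the head of the phosphate starvation response (chromosome 7, from 13317060 to 13321390), had 13.8, 36.1 and 38.9 CPM. These 3 genes had 0 CPM in every pericarp library, so no groups overlapped. They stood at least 766-fold, 351-fold and 217-fold above the floor (adjusted p = 0.0388, 0.0219 and 0.0196, edgeR QL test). The UBP26 call ended without any 1 of 10 libraries (adjusted p = 0.0503 to 0.113), and those of CDKG-1 (0.0515 to 0.0849) and PHR2 (0.0526 to 0.0764) without aleurone 3 or any 1 of the embryo libraries.

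APX1, CESA5 and SAPK2 each had 1 count in a single pericarp library. APX1, an ascorbate peroxidase that removes hydrogen peroxide (chromosome 3, from 10737201 to 10740196), had 142, 266 and 224 CPM in embryo, and its pericarp count was in pericarp 1. CESA5, a catalytic subunit of cellulose synthase (chromosome 3, from 39539680 to 39544445), had 101, 122 and 119 CPM in embryo. SAPK2, a kinase of the abscisic acid and osmotic stress pathway (chromosome 7, from 23774031 to 23777811), had 99.5, 67.2 and 83.4 CPM in embryo. For both of these the pericarp count was in pericarp 3. The ratio of embryo to pericarp was 4552 for APX1, 2493 for CESA5 and 1853 for SAPK2, with 95% Poisson intervals of 817 to 179789, 447 to 98461 and 333 to 73185 that cover counting error only. The calls (adjusted p = 0.0309, 0.0336 and 0.0347, edgeR QL test) ended without any 1 of 6 libraries for APX1 (0.0503 to 0.106) and SAPK2 (0.0513 to 0.141) and of 10 for CESA5 (0.0541 to 0.0980).

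With lane as a covariate the calls of LTP, UBP26, CDKG-1, PHR2, APX1, CESA5 and SAPK2 ended (adjusted p = 0.0503 to 0.0786), and within lane 5 they held. With library totals alone in place of TMM, the calls of CESA5, SAPK2 and UBP26 ended (adjusted p = 0.0519 to 0.0522, edgeR), without a filter those of LTP (0.0505) and SAPK2 (0.0552), and with a robust dispersion those of SAPK2 (0.0532) and UBP26 (0.0503).

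**Figure D5:**
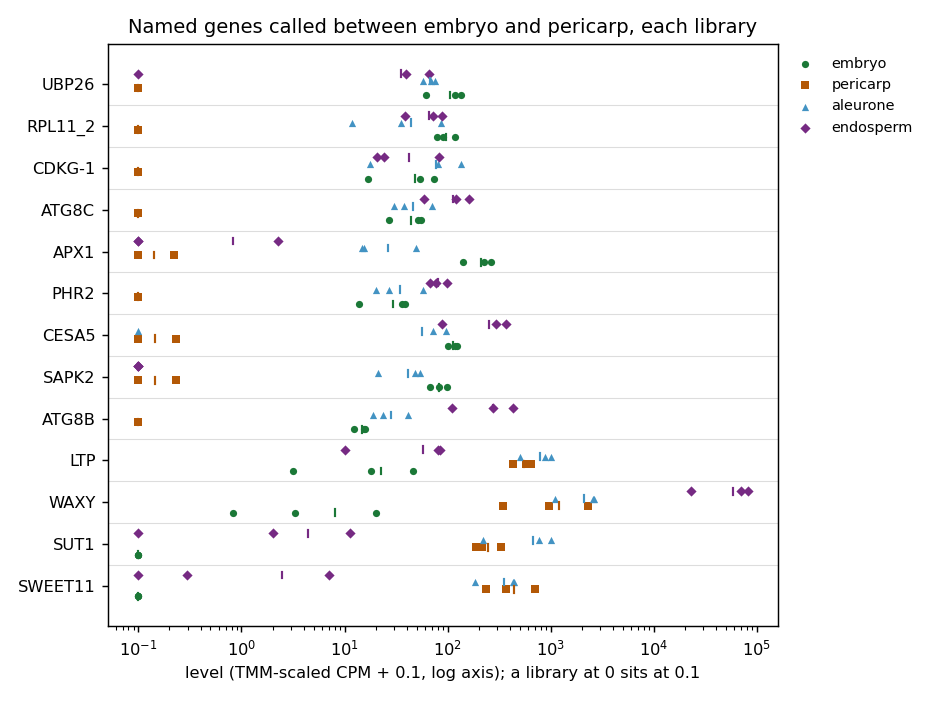
Level of the 13 genes with a symbol that were called between embryo and pericarp, in every library of the 4 tissues (x axis: TMM-scaled CPM + 0.1, log axis; each point is a library and each short line a tissue mean). For the upper 9 genes the pericarp points sit at or beside the left edge, and for SUT1 and SWEET11 the embryo points do, while LTP and WAXY have points in every tissue.

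Relatives of these genes did not pass the test. CESA1, another cellulose synthase, had 202, 141 and 225 CPM in embryo and 40.0, 364 and 272 CPM in pericarp. Of 7 cell wall genes tested CESA5 was the only call, against 2.18% of all genes tested called higher. SAPK3, of the same kinase family as SAPK2, had 53.3, 87.0 and 50.1 CPM in embryo and 0, 66.8 and 0 CPM in pericarp. PHR1, a relative of PHR2, had 59.9, 37.6 and 43.7 CPM in embryo and 15.4, 54.4 and 70.2 CPM in pericarp. In all 3 the groups overlapped and the genes did not pass. Whether a called gene differs from its relative was not tested, and these relatives were chosen after their values were seen.

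The 2 higher genes of lowest adjusted p with at least 50 CPM carried an identifier alone. BGIOSGA014885 (chromosome 4, from 22243179 to 22247284) had 552, 536 and 317 CPM in embryo and 0 CPM in pericarp, at least 3428-fold above the floor (adjusted p = 0.00115, edgeR QL test). BGIOSGA012909 (chromosome 3, from 19854742 to 19856213) had 345, 235 and 387 CPM in embryo and 0 CPM in pericarp. Aleurone and endosperm counted both genes, with means of 86.7 and 129 CPM for the first and 126 and 209 CPM for the second.

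Genes of cell division gave 1 call, CDKG-1. CYCB2-1, a B-type cyclin that drives entry into mitosis, had 85.1, 89.2 and 128 CPM in embryo and 0 CPM in pericarp (adjusted p = 0.0666, edgeR QL test). MCM6, a subunit of the helicase that opens DNA for replication, had 39.8, 21.4 and 99.1 CPM in embryo and 0, 0.131 and 0 CPM in pericarp. MCM3 and MCM5, of the same helicase, were counted in pericarp in 1 library each, MCM3 at 117 CPM in pericarp 4 and MCM5 at 62.6 CPM in pericarp 3. Their embryo libraries had 260, 225 and 182 CPM, and 55.6, 103 and 87.4 CPM. FEN1a, a nuclease that trims Okazaki fragments, had 174, 54.6 and 134 CPM in embryo and was at 67.3 CPM in pericarp 3 and at 0 in the other 2 pericarp libraries. None of the 8 replication genes passed, all 8 had a fold change above 0, against 75.2% of all genes tested, and in 4 every embryo library was above every pericarp library, against 43% of all genes tested. In 2 of the 8 no pericarp library had a count. Of 9 cell cycle genes tested, 1 was called, against 2.18% of all genes tested called higher. In 6 of the 9 every embryo library was above every pericarp library, again against 43% of all genes.

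Histone H2B genes, which package newly made DNA, were uneven among the pericarp libraries. H2B.2 had 167, 187 and 220 CPM in embryo and 0, 217 and 0 CPM in pericarp. H2B.6 had 195, 232 and 189 CPM in embryo and 0, 181 and 245 CPM in pericarp, and its fold change turned below 0 with library totals alone. H2B.5 had 104, 145 and 99.6 CPM in embryo and 0, 119 and 23.5 CPM in pericarp. Each of these 3 was at 0 in pericarp 1, and levels in the pericarp libraries that counted them ran from well below to above those of embryo. None of the 10 H2B genes passed, against 2.79% of all genes tested, and the median log2 fold change was 1.71, against 2.41. H2B sequences are so alike that shared reads make single values uncertain.

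Meristem homeobox genes were low. OSH15, a KNOX factor of the shoot meristem, had 21.8, 31.9 and 31.4 CPM in embryo and 0, 54.8 and 0 CPM in pericarp. OSH71, another KNOX factor, had 48.7, 17.5 and 39.6 CPM in embryo and 0 CPM in pericarp (adjusted p = 0.0813, edgeR QL test). WOX5, a factor of the WOX family, went the other way, with 0 CPM in every embryo library and 58.7, 0.131 and 47.9 CPM in pericarp (adjusted p = 0.0763, edgeR QL test). None of 5 tested meristem homeobox genes passed. As a check of the labels, the summed level of the 4 embryo markers found by symbol (OSH15, OSH71, WOX4 and WOX5, of 8 planned) was 56.0 to 76.8 CPM in embryo and 47.9 to 58.7 CPM in pericarp. This sum did not separate the tissues and was as high in endosperm, at 59.6 to 99.02 CPM. WOX5 alone made up the sum in endosperm and in pericarp 1 and 4, and it was at 0 CPM in every embryo library. In pericarp 3 the sum was OSH15, apart from 0.131 CPM of WOX5. OSH15 and OSH71 had 0 CPM in every endosperm library.

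The summed level of the markers planned for maternal tissue was higher in pericarp than in embryo. SWEET11, SUT1, LTP, CHS1 and CHI, 5 of 8 planned, summed to 1353 to 2807 CPM in pericarp and 90.2 to 222 CPM in embryo, but also to 1542 to 2272 CPM in aleurone. SWEET11, SUT1 and LTP were themselves called lower in embryo, and the list was chosen with earlier results known. This sum is therefore no independent check of the labels. Aleurone markers (OLE18, LTP and RAB16C, 3 of 9 planned) summed to 1687 to 2349 CPM in pericarp and 1550 to 2660 CPM in embryo. CHI, a chalcone isomerase of flavonoid synthesis, rested largely on 1 library, with 21.3, 311 and 1587 CPM in pericarp and 132, 152 and 85.0 CPM in embryo. CHS1, the chalcone synthase before it in the pathway, had 0, 42.4 and 0 CPM in pericarp and 44.3, 17.5 and 2.12 CPM in embryo. Neither flavonoid gene passed.

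HD-Zip transcription factors, which pattern organs and vascular tissue, gave 0 calls among 11 tested, with a median log2 fold change of 1.53. Of all genes tested, 2.79% were called, and the median was 2.41. HOX32 and HOX33, of the class with a START domain, had 215, 201 and 231 CPM and 274, 241 and 290 CPM in embryo. In pericarp HOX32 was counted in pericarp 1 alone, at 67.4 CPM, and HOX33 at 0.131 CPM in pericarp 3 and 90.7 CPM in pericarp 4. The embryo libraries of both lay above every pericarp library. HOX16 leaned the other way, with 6.05, 7.50 and 5.84 CPM in embryo and 247, 0 and 23.3 CPM in pericarp.

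Other genes with large fold changes did not pass the test. The auxin response factor ARF6 had 112, 59.8 and 75.6 CPM in embryo, SPL12, a squamosa promoter-binding factor, 88.5, 43.1 and 53.5 CPM, and VLN1, an actin-bundling villin, 116, 74.2 and 113 CPM. The type B cytokinin response regulators RR23 and RR24 had 56.6, 70.1 and 56.6 CPM and 78.8, 30.3 and 47.8 CPM in embryo, and CARM1, an arginine methyltransferase of histones, 104, 69.4 and 66.9 CPM. All 6 genes had 0 CPM in every pericarp library (adjusted p = 0.0579 to 0.0823, edgeR QL test). SPL12 was at 0 CPM in the aleurone and endosperm libraries too, whereas CARM1 had 45.7 ± 16.5 CPM and RR23 27.4 CPM on average in aleurone (SD, n = 3).

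Hormone genes as groups gave 0 calls apart from SAPK2. Of 10 tested auxin and tryptophan genes 7 had every embryo library above every pericarp library, against 43% of all genes tested, and 8 had a fold change above 0. One of the 7 was ARF17, with 250, 128 and 180 CPM in embryo and 0, 20.3 and 57.2 CPM in pericarp. DAO, which oxidises auxin and so inactivates it, was the member with every pericarp library above every embryo library, with 5.81, 1.67 and 0.482 CPM in embryo and 187, 35.3 and 41.3 CPM in pericarp (adjusted p = 0.0733, edgeR QL test). Among 12 cytokinin, brassinosteroid and ethylene genes, the ethylene receptor ETR4 had 403, 342 and 409 CPM in embryo and 135, 72.2 and 39.3 CPM in pericarp without passing. COI1A, the jasmonate receptor subunit, had 74.3, 92.9 and 72.4 CPM in embryo and 0, 28.1 and 22.0 CPM in pericarp, and COI2, its relative, 28.7, 22.4 and 22.8 CPM and 0, 77.5 and 0 CPM. The direction of COI2 was not stable across settings.

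The pericarp of a young rice grain is green, and the age of these seeds is not given. Of 7 tested chloroplast genes with a symbol, 4 had no count in the pericarp libraries, against 7040 of the 16347 genes tested. CHLH, a subunit of the magnesium chelatase of chlorophyll synthesis, had 3.78, 0 and 4.29 CPM in embryo and 0, 70.5 and 71.2 CPM in pericarp. CHLI, another subunit, had 11.3, 26.2 and 13.9 CPM in embryo and 0, 70.6 and 0 CPM in pericarp. Neither passed, and pericarp 1 held no count of either. CHLD, the remaining chelatase subunit with a symbol, had 10.01 CPM in embryo 2, 17.0 in embryo 3 and 21.3 in embryo 4 and 0 CPM in pericarp. None of 7 tested chloroplast and photosynthesis genes was called, 4 were at 0 in all pericarp libraries with every embryo library above, and the median log2 fold change was 4.39 with genes at 0 set at their floor. Over all genes tested, every embryo library was above every pericarp library in 43%, and the median on the same scale was 2.42. CHLD was chosen after its values were seen.

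OLE18 and LEA19 were abundant in both tissues, while other storage and protection genes were low or at 0 in pericarp. OLE18, an oleosin that coats oil bodies, had 1635, 2384 and 1430 CPM in embryo and 1259, 1556 and 1696 CPM in pericarp. The groups overlapped, and the log2 fold change of 0.27 ± 0.61 (SE; edgeR QL test, adjusted p = 0.863) turned below 0 with DESeq2's size factors and with library totals. LEA19, a late embryogenesis abundant gene, had 1500, 1828 and 558 CPM in embryo and 494, 643 and 987 CPM in pericarp. RAB16C, a dehydrin induced by abscisic acid and drying, had 380, 258 and 117 CPM in embryo and 0, 36.2 and 0.499 CPM in pericarp, and RAB16D 47.0, 43.3 and 10.2 CPM and 0 CPM. For both dehydrins every embryo library was above every pericarp library, without passing (adjusted p = 0.159 and 0.0658). PXG, a peroxygenase of the oil body, had at most 4.33 CPM in embryo and none in pericarp.

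Genes of primary metabolism gave no calls among those named. GAPC, the cytosolic glyceraldehyde-3-phosphate dehydrogenase of glycolysis, had 1004, 955 and 799 CPM in embryo and 635, 492 and 468 CPM in pericarp. All embryo libraries lay above all pericarp libraries, by a log2 fold change of 0.79 ± 0.54 that did not pass (SE; edgeR QL test, adjusted p = 0.323). The fermentation genes ADH1, an alcohol dehydrogenase, and PDC2, a pyruvate decarboxylase, had log2 fold changes of 1.33 ± 0.76 and 0.66 ± 0.75. HSP81-1 had 2268, 2958 and 1916 CPM in embryo and 469, 1301 and 969 CPM in pericarp, and CAM2 425, 418 and 456 CPM and 101, 226 and 194 CPM. Neither of these passed (adjusted p = 0.102 and 0.166), in both every embryo library was the higher, and both were chosen after their values were seen.

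The genes with a symbol, at least 50 CPM in both tissues and the smallest fold changes were of several kinds. BADH2, the betaine aldehyde dehydrogenase whose loss makes rice fragrant, had 133, 159 and 112 CPM in embryo and 153, 167 and 93.2 CPM in pericarp (log2 fold change -0.03 ± 0.80, SE). BRE1B, a ligase that adds ubiquitin to histone H2B, had 72.9, 57.4 and 80.9 CPM and 57.9, 48.1 and 78.4 CPM. GSH1-1, which makes the first intermediate of glutathione, had 93.7, 61.1 and 70.7 CPM and 92.9, 128 and 32.4 CPM. In these 3 genes all 6 libraries were counted and the groups overlapped. The other 5 rested on pericarp libraries far apart, such as ABCC13, a transporter needed for phytic acid storage, at 230, 297 and 180 CPM in embryo and 596, 34.8 and 0 CPM in pericarp, and ERS1, an ethylene receptor, at 115, 28.2 and 135 CPM and 156, 142 and 0 CPM. Fold changes of BADH2, GSH1-1 and ERS1 below 0, and of BRE1B and ABCC13 above 0, changed sign under other settings, so none of them has a direction.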

How the data were processed

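Genes were compared between 3 embryo and 3 pericarp libraries of rice seed, within a fit of 12 libraries. The counts, whole numbers per gene that were not normalized, were deposited by the authors, per the file headers, in 1 table for the series. RNA was isolated with a PicoPure kit and sequenced after NEBNext Ultra preparation, per the labels' protocols. The sources used here do not give the aligner, the counting of shared reads, the use of strand or the genome build, so coordinates are those of the deposited table. Columns were assigned to tissues by the letters Em, Pc and Al in their headers. Se columns were taken as endosperm, the name left over. Header numbers differ from title numbers, so a column is tied to a tissue and not to a sample, and 1 measure per tissue was kept. A further 36 columns of per-sample values were not used, among them the length-scaled values, so orders of abundance, by CPM, are not corrected for gene length. The p-values measure the spread between these libraries, which may be technical.

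The counts were analysed in R 4.3.3 with a quasi-likelihood (QL) fit of edgeR 4.0.16 that held tissue as its only term. filterByExpr with a minimum count of 10 left 16347 genes, and TMM factors were 1.20 to 1.33 in embryo and 1.33 to 2.11 in pericarp. p-values were adjusted by Benjamini-Hochberg over all genes tested. The standard error is the size of the log2 fold change divided by the root of the F statistic. Where a tissue had no count, a fold is a lower bound against 3 counts over its 3 libraries. With 1 to 3 counts, a ratio with an exact 95% Poisson interval is given. These bounds and intervals cover counting error only. Alternatives were other scalings and filters, a robust dispersion, DESeq2 1.42.0, limma 3.58.1 (voom), the 6 libraries alone, lane, the header number as a block, and each library left out. The test was also run on simulated counts, which had 1 spread for all tissues and did not copy that of these pericarp libraries. No conclusion about these data is drawn from that run.

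The comparison, its genes and its lists were chosen with earlier results of these data known. Named are genes with a symbol that were called, the called members of each list or else its 3 most abundant, the 8 largest and 8 smallest fold changes among genes with a symbol that were not called at 50 CPM or more, genes deposited with a description at that level, and 2 identifiers in each direction. Genes outside this rule are said to have been chosen after their values were seen. Lists are families of symbols, and 412 of 37878 genes had a symbol. The reference table of rice loci matched none of the other identifiers.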

Additional observations from a re-analysis of the deposited data

How the results depend on the processing

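The number of calls varied widely between settings. With library totals alone 286 genes were called (194 higher in embryo), in the 6 libraries alone 5638 (5525 higher), with DESeq2 5316 (4813 higher, 503 lower) and with limma voom 7222 (7038 higher, 184 lower). Lane as a covariate left 186 (122 higher, 64 lower), lane 5 alone gave 7405 (7293 higher), and lane with the 6 libraries alone, chosen after seeing the data, 5589 (5498 higher). The other scalings, filters and the robust dispersion kept the 3 counts within 1.5 times. Some named calls ended, those of CESA5, SAPK2 and UBP26 with library totals, of LTP and SAPK2 without a filter, and of SAPK2 and UBP26 with a robust dispersion. Without single libraries the total ran from 108 to 925, higher calls from 73 to 824 and lower calls from 35 to 113. The mean number of genes counted per library, with 1 library left out, was 15530 to 16798 for embryo and 5042 to 5689 for pericarp. The replicate block by header number called 318 genes, 210 higher and 108 lower. Over 13 same-numbered pairs of libraries, deviations from the tissue means correlated at -0.0418 to 0.0312. With 3 libraries a tissue and pericarp libraries far from each other, these values cannot decide whether samples were paired. The cause of the shifts in the number of calls was not tested.

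Fold changes of genes that were not called changed sign under some settings, given as log2 values; EGY3 (-2.58), CIN2 (-1.99), TIFY10B (-1.39) and OSK3 (-1.34) began far from 0, as did MADS7, which was counted in pericarp 1 alone of the 6 libraries. DESeq2's size factors, and DESeq2 itself, gave ABCC13 -0.43, BRE1B -0.32, MT2C -0.50, OLE18 -0.23, PAB1 -0.52, PHR1 -0.48 and RAN2 -0.18. Library totals gave BRE1B -0.29, H2B.6 -0.10, MT2C -0.60, OLE18 -0.22, PAB1 -0.32, PHR1 -0.58 and RAN2 -0.10. Without a filter BADH2 was 0.035 and ITPK6 0.054. A minimum count of 50 gave BADH2 0.15, COI2 0.066, ERS1 0.074, GSH1-1 0.0064 and ITPK6 0.19, and the 6 libraries alone BADH2 0.039. limma voom gave CESA1 0.36, CHLI 4.52, CIN2 0.39, COI2 5.13, EGY3 0.24, ERS1 2.59, ITPK6 3.80, OSK3 1.89 and TIFY10B 0.55. The replicate block gave CHLI 3.35, COI2 4.10, GSH1-1 0.38, ITPK6 0.31, MT2C -0.18, OLE18 -0.046 and PHR1 -0.28, and ended the calls of PHR2, CDKG-1 and SAPK2. With lane as a covariate CHLI was 0.87, COI2 0.72, ITPK6 0.012, MT2C -0.014 and PHR1 -0.16. Lane 5 alone gave BADH2 0.072, CHS1 -1.12, ERS1 0.16, MT2C -0.13 and PHR1 -0.58. Lane with the 6 libraries gave BADH2 0.039, CESA1 0.20, CHLI 0.72, COI2 0.76, ERS1 0.015 and ITPK6 1.07. Without single libraries BADH2 ran from -0.11 to 0.46, ITPK6 from -0.53 to 2.44, COI2 from -0.67 to 11.31, ERS1 from -0.44 to 0.57, CHS1 from -0.52 to 11.09, PHR1 from -0.35 to 0.74, GSH1-1 from -0.28 to 0.59, MT2C from -0.21 to 1.64, MADS7 from -11.62 to 0, ABCC13 from -0.11 to 3.75, CESA1 from -0.71 to 0.65, CHLI from -1.05 to 10.79, PAB1 from -0.21 to 0.97, ATG8A from -0.49 to 0.34 and EGY3 from -3.47 to 8.58. Values beyond 8 rest on a tissue left with no count. Pericarp depth, at 2879282 to 6301388 counts, limits what can be said of genes at 0 there.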

Other observations

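Several genes outside the lists' leading members, chosen after their values were seen, are given here as values. MT3A, a metallothionein that binds metal ions, had 7.61, 3.44 and 9.55 CPM in embryo and 163, 74.4 and 73.7 CPM in pericarp, and every pericarp library was above every embryo library. Its log2 fold change was -3.91 ± 1.503 (SE, adjusted p = 0.0905, edgeR QL test), which did not pass, and over the alternatives its adjusted p ran from 0.000969 with DESeq2 to 0.283 with the header number as a block. TRXH, a thioredoxin that reduces disulfides, had 83.02, 73.8 and 50.9 CPM in embryo and 140, 151 and 92.3 CPM in pericarp, again without overlap (adjusted p = 0.489, edgeR QL test). MADS7, a MADS box factor of floral organs, had no count in embryo and 75.1 CPM in pericarp 1 alone. RAN2, a small GTPase of nuclear transport, had 369, 425 and 459 CPM in embryo and 358, 332 and 304 CPM in pericarp, and its log2 fold change of 0.33 ± 0.58 turned below 0 under 2 other scalings.

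The 99 genes lower in embryo were 1.16% of the tested genes of chromosome 7, 1.03% of those of chromosome 10 and 0.232% of those of chromosome 12, against 0.606% over all chromosomes. Among the 100 most abundant pericarp genes, 50 were also among the 100 most abundant embryo genes, 72 among those of aleurone and 46 among those of endosperm.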
